A study of Mus musculus with 4 samples.

Results

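The respiratory chain and the ATP synthase of the inner mitochondrial membrane were followed through the expression of their nuclear-encoded subunit genes in whole mouse embryos that lacked Cop1. The subunits were chosen by gene symbol: every probe set whose only gene was a subunit of complexes I to V, cytochrome c (Cycs) or cytochrome c1 (Cyc1) was taken. No measured value entered the rule, but earlier results of these data were known when the subunits were chosen. Ndufa4, Ndufa4l2, Cox4i1 and Cox4i2 were set apart. This gave 170 of the 45037 probe sets tested and 80 of 18193 genes. Of the 80 genes, 34 encode subunits of complex I, 4 of complex II, 9 of complex III, 1 encodes cytochrome c, 15 encode subunits of complex IV and 17 of the ATP synthase, complex V.

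Expression was measured on 4 Affymetrix arrays, of which 2 held RNA of Cop1-null embryos and 2 held RNA of controls, all at embryonic day 9.5. COP1 is an E3 ubiquitin ligase. The array titles call the controls wild-type, while the description in the same labels gives them as +/+ or +/-, so heterozygous embryos may be among them. RNA of 6 embryos per genotype was combined into 1 pool, and each pool was split into the 2 portions that went onto arrays. The p-values therefore measure only the spread between portions of the same RNA, and a difference between the pools cannot be told apart from a difference between the embryos that happened to enter them. The labels give neither the strain nor the kind of null allele.

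Complex I takes electrons from NADH and complex II takes them from succinate, and both pass them to ubiquinone. Complex III moves them on to cytochrome c, and complex IV hands them to oxygen. Complexes I, III and IV pump protons across the membrane as they work, and the ATP synthase lets the protons flow back to make ATP. Nearly all of the subunits are encoded in the nucleus, and their genes are known targets of the transcription factors NRF1, GABP (an ETS-family factor) and YY1. In the embryo at this stage the heart has begun to beat and the yolk sac circulation is being established, while much of the energy still comes from glycolysis.

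The deposited values are RMA expression values on the log2 scale, on which 1 unit is a doubling. All differences are given as null minus control, and a gene is said to have risen or fallen when limma's p, adjusted over all probe sets, was under 0.05 and the difference reached 1.5-fold (0.58 on the log2 scale). Where a gene had several probe sets, the one with the highest mean over the 4 arrays stood for it. Cop1 itself was at 11.35 and 11.26 in the control portions and at 9.67 and 9.77 in the null portions and fell by 1.58 (adjusted p = 0.000728). The median of all probe sets was 6.03 on each control array, and 6.10 and 6.09 on the null arrays. The 3 probe sets for 18S ribosomal RNA lay between 11.03 and 11.81 on the control arrays and between 12.64 and 13.12 on the null arrays. The expression of markers of several cell types differed between the pools: 8 of 10 early neuron markers and 5 of 8 somite markers fell, and 3 of 8 endothelial markers rose. Of 12 heart muscle markers 3 fell and 2 rose, with a summed linear value of 16220 and 16180 in the control portions and 17470 and 17510 in the null portions. Of 10 primitive erythroid markers 1 fell and 0 rose, of 8 neural tube progenitor markers 3 fell and 0 rose, and the 4 markers of placenta and decidua with a value showed 0 calls and a summed value of 49.0 to 51.4, near the bottom of the array. The part of these shifts in the results below was not tested. In whole embryos, fewer cells of a type and less RNA per cell cannot be told apart.

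The sequences just upstream of 4 of the subunit genes that passed both limits are given first, because they show the best-known shared feature of these promoters, the NRF1 site, in 3 genes that fell, beside 1 that rose and has no match in the same window; they were picked after their values were seen. Each runs 5′ to 3′ on the gene's strand over the 150 bases before a RefSeq start on GRCm38.p6, and the capitals mark a match to GCGCANGC on either strand.
Cycs, chr6:50566570-50566719, minus strand: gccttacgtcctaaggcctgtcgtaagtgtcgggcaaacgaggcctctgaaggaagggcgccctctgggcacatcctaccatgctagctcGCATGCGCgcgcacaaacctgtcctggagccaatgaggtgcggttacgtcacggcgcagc
Sdhb, chr4:140961121-140961270, plus strand: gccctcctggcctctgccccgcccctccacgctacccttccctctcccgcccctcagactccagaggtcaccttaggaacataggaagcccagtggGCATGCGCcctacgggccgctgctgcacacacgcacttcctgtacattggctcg
Ndufa5, chr6:24527691-24527840, minus strand, from the more upstream start of the gene: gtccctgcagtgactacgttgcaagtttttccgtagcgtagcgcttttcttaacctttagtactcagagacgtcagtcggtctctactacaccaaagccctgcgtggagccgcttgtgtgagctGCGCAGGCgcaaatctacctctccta
Ndufv3, chr17:31519965-31520114, plus strand: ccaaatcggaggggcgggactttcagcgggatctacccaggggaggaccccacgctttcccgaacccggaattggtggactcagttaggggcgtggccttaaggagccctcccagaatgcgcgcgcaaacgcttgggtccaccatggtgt
The match begins 60 bases before the start in Cycs, 54 in Sdhb and 26 in Ndufa5. The 150 bases before the other listed start of Ndufa5, and those of Atp5j and Cox7c, hold no match to the NRF1 letters. Promoter windows of 300 bases (250 before and 50 after a start) were at hand for 67 of the 80 genes. The NRF1 letters GCGCANGC were found on either strand in 22 of the 67 (32.8%), against 11.2% of 27025 genes. The ETS letters CCGGAAG were found in 17 (25.4%, against 9.93%), and the YY1 letters AAGATGGCG in 6 (8.96%, against 1.64%). NRF1 and ETS letters stood together in 7 (10.4%, against 2.14%). The hypoxia response core ACGTG was found in 19 (28.4%, against 21.8%). The ETS and YY1 letters can overlap at their shared AAG, and a match is a description of sequence only. The median difference was -0.19 in genes with the NRF1 letters and -0.09 in those without, -0.17 and -0.09 for the ETS letters, and -0.02 and -0.10 for the YY1 letters.

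Most subunit genes were slightly lower in the null pool, and few passed both limits. The differences ran from -0.91 to 1.38 with a median of -0.10, while the median of all genes was -0.02. The mean level of the 80 genes was 11.14 in both control portions and 11.05 in both null portions. Of the 80, 4 fell (5%) and 2 rose (2.5%). Among all genes tested 8.06% fell and 3.58% rose, so neither share stood above that background. By adjusted p alone, 23 subunit genes were lower (28.8%) and 7 were higher (8.75%), against 21.8% and 12.0% of all genes. These counts depend on the fit. An intensity trend in eBayes gave 44 lower and 11 higher, and leaving out any 1 array gave fewer of both. Both null arrays lay below both control arrays for 51 of the 80 (63.8%), against 39.3% of all genes. They lay above for 18 (22.5%), against 28.9%, and the groups overlapped for the other 11. Groups that did not overlap were found for 86.2% of the subunit genes and for 68.2% of all genes. Among those without overlap, 73.9% of the subunit genes and 57.6% of all genes were lower in the null pool. The subunit genes are brighter than the average gene: the mean level of all genes was 7.20 and 7.19 in the control portions. The shares were not compared at equal level. Without the dimmest 40% of probe sets the median was -0.11 for the subunit genes and -0.06 for all genes. With arrays centred on poly-A spikes, RNAs added to each sample, the medians of the subunit genes and of all genes were -0.33 and -0.26.

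**Figure D1:**
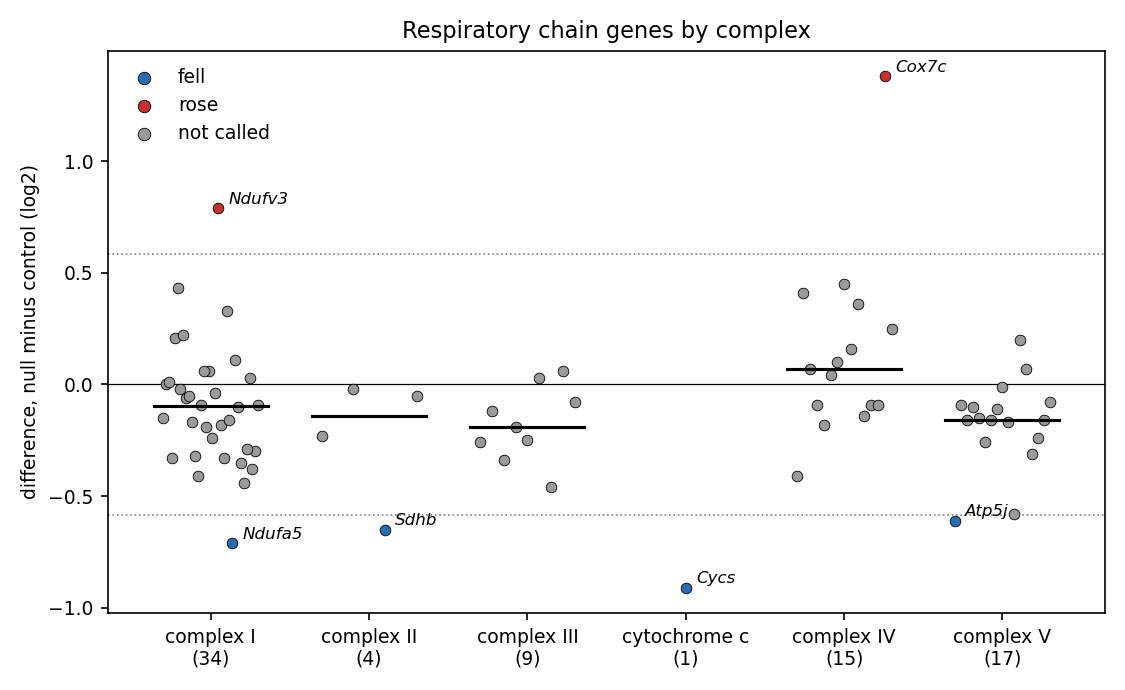
Difference between the null and control pools (log2, vertical axis) for each of the 80 subunit genes, 1 point a gene, arranged by complex with the median of each as a bar and dotted lines at the fold limit. Complexes I, II, III and V have medians from -0.10 to -0.19, complex IV has 0.07, and the 6 coloured genes are those that fell or rose.

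Complex I, the NADH dehydrogenase, had 1 gene that fell, 1 that rose and a median of -0.10 over 34 genes. By adjusted p alone 10 were lower and 3 higher. Ndufa5, an accessory subunit of the Q module where electrons reach ubiquinone, was at 10.71 and 10.73 in the control portions and at 10.02 and 10.02 in the null portions. Both null arrays were lower and the groups did not overlap. The gene fell by 0.71 (SE 0.06, 1.63-fold, adjusted p = 0.00203), and its other probe set fell by 0.84 (adjusted p = 0.00313). Ndufv3, a small accessory subunit of the N module at the NADH-binding tip, was at 10.99 and 11.00 in the control portions and at 11.79 and 11.78 in the null portions. Both null arrays were higher, and the gene rose by 0.79 (SE 0.06, 1.73-fold, adjusted p = 0.00157). With arrays centred on the poly-A spikes its difference was 0.56, short of the fold limit (adjusted p = 0.0111).

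The 3 parts of complex I were described side by side, with no test between them. The 9 N module genes, which take electrons from NADH, had a median of 0.03, the 5 Q module genes had -0.05 and the 20 genes of the membrane arm, which holds the proton pumps, had -0.13. In the N module 1 gene was lower and 2 were higher by adjusted p alone. Next to Ndufv3, Ndufa6, an accessory subunit that binds the acyl carrier protein, was at 10.44 and 10.48 in the control portions and 10.92 and 10.86 in the null portions. That is 0.43 higher with no overlap (adjusted p = 0.00876). The flavoprotein gene Ndufv2, which holds an iron-sulfur cluster near the flavin site, differed by -0.33. In the Q module Ndufs8, an iron-sulfur subunit, differed by -0.35, and both of its null arrays (11.37 and 11.46) lay below its control arrays (11.75 and 11.79).

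In the membrane arm 7 of 20 genes were lower and 1 was higher by adjusted p alone, and 0 passed the fold limit as well. These genes are accessory subunits that surround the mitochondrially encoded proton pumps. Ndufb2 was at 10.75 and 10.77 in the control portions and at 10.35 and 10.30 in the null portions, lower by 0.44 (difference -0.44, adjusted p = 0.00739). Ndufb7, Ndufb8, Ndufs5, Ndufc2, Ndufb9 and Ndufb6 had differences of -0.38, -0.33, -0.32, -0.30, -0.29 and -0.24. These 7 genes were picked by adjusted p, so that both null arrays lay below both control arrays in each adds nothing to it. The same held for 14 of the 20 genes of the arm (70%), against 39.3% of all genes. Ndufb1 had a difference of -0.41 but portions that spread more widely, with 7.35 and 7.05 in the controls and 6.93 and 6.65 in the nulls (adjusted p = 0.0956). Ndufb11 was the gene of this arm that was higher, with 11.99 and 11.98 in the controls and 12.27 and 12.36 in the nulls. Its difference was 0.33 (adjusted p = 0.0204), and its 3 probe sets ran from 0.18 to 0.33.

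Complex II, succinate dehydrogenase, is also an enzyme of the citric acid cycle, and its 4 genes had negative differences with a median of -0.14. The sign of the differences nearest 0 depended on the processing, with Sdha at 0.01 and Sdhd at 0.02 after a further quantile normalization and Sdha at 0.19 as the mean over its probe sets. Sdhb, the iron-sulfur subunit that carries electrons from the flavin to ubiquinone, was at 11.72 and 11.70 in the control portions and at 11.04 and 11.09 in the null portions. It fell by 0.65 (SE 0.06, 1.56-fold, adjusted p = 0.00263), with no overlap. Sdhc, a membrane anchor, was at 10.82 and 10.83 in the controls and 10.62 and 10.57 in the nulls, a difference of -0.23 (adjusted p = 0.0479). Its other probe set differed by -0.02 (adjusted p = 0.847), and the mean over its probe sets gave -0.13 (adjusted p = 0.203). The partner anchor Sdhd was at 10.87 and 10.87 in the controls and 10.84 and 10.80 in the nulls, a difference of -0.05 (adjusted p = 0.614). Sdha, the flavoprotein that oxidises succinate, was at 11.47 and 11.44 in the controls and 11.43 and 11.45 in the nulls, with overlapping groups and a difference of -0.02 (adjusted p = 0.849).

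Complex III, the cytochrome bc1 complex, had 0 of 9 genes past both limits, a median of -0.19, and 4 genes lower by adjusted p alone against 0 higher. Uqcrq, a small subunit next to cytochrome b, was at 10.97 and 10.99 in the control portions and 10.51 and 10.52 in the null portions. Its difference of -0.46 was the most negative of the complex (adjusted p = 0.00592). Its 3 other probe sets, which lay between 4.61 and 5.94 on the 4 arrays, gave 0.00, 0.14 and 0.16, and the mean over its probe sets gave -0.04 (adjusted p = 0.726). Cyc1, the haem protein that gives electrons to cytochrome c, was at 11.85 and 11.87 in the controls and at 11.52 and 11.51 in the nulls, a difference of -0.34 (adjusted p = 0.0137). Both genes had null arrays that lay below the controls, as did 7 of the 9 genes (77.8%), against 39.3% of all genes. The core protein gene Uqcrc1 differed by -0.26 and Uqcr11 by -0.25, while the core protein gene Uqcrc2 and the hinge protein gene Uqcrh differed by 0.06 and 0.03. Those last values turn to -0.17 and -0.21 with poly-A centring. Uqcrfs1, which encodes the Rieske iron-sulfur protein, differed by -0.08.

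Cytochrome c, the mobile carrier between complexes III and IV and also a trigger of apoptosis once released from mitochondria, had the most negative difference of all 80 genes. Cycs was at 12.58 and 12.63 in the control portions (mean 12.60 ± 0.03, SD, n = 2 portions) and at 11.72 and 11.66 in the null portions (11.69 ± 0.04). The portions of each pool lay close together and the groups did not overlap. The gene fell by 0.91 (SE 0.07, 1.88-fold, adjusted p = 0.00137). Its other probe sets differed in size: a second one, at 12.31 and 12.34 against 11.22 and 11.19, fell by 1.12 (adjusted p = 0.000891). Another, at 11.01 and 11.04 against 9.65 and 9.59, fell by 1.40 (adjusted p = 0.000705), and the last had a difference of -0.35 and was not called.

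**Figure D2:**
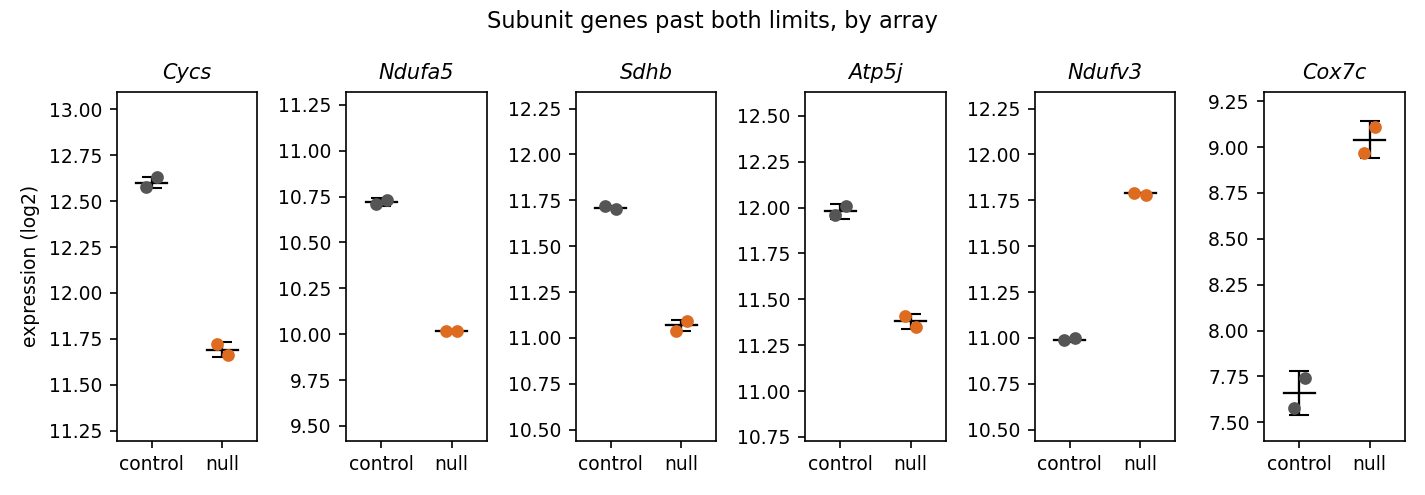
Log2 expression value on each of the 4 arrays, 1 point an array, for the 6 subunit genes that passed both limits, with the mean of each pool as a bar, the SD over its 2 portions as error bars and a vertical axis for each gene. Cycs, Ndufa5, Sdhb and Atp5j have both null arrays below both control arrays, Ndufv3 and Cox7c have both above, and the 2 portions of a pool lie within 0.16 of each other.

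Complex IV, cytochrome c oxidase, was the complex with a positive median, 0.07 over 15 genes, although centring on the poly-A spikes turned it to -0.16. Of these genes 1 rose and 0 fell, and by adjusted p alone 4 were higher and 1 lower. Differences were positive for 9 and negative for 6. The 9 include every tissue isoform of the complex (Cox6a2, Cox6b2, Cox7a1, Cox7b2, Cox8b and Cox8c), and beside them only Cox7a2l, Cox7c and Cox8a. The sign of the median therefore rests on the tissue isoforms. Cox7c, a small membrane subunit, was at 7.58 and 7.74 in the control portions and at 8.97 and 9.11 in the null portions. Both null arrays were higher and the gene rose by 1.38 (SE 0.09, 2.6-fold, adjusted p = 0.00118). Its other probe set, at 6.39 and 6.50 against 7.82 and 7.80, rose by 1.37 (adjusted p = 0.000818). Both probe sets are named from the platform table, and the position of their probes in the transcript was not analysed here. They lay far below the broadly expressed Cox5a and Cox5b, whose control means were 12.75 and 13.03. Low levels were also seen in the further probe sets of Atp5c1, Ndufa3 and Sdha, described below, that rose while the brighter probe set of the gene did not. Whether the rise of Cox7c reflects its main transcript was not tested.

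Several subunits of complex IV exist as ubiquitous and tissue-specific isoforms, and for subunits 6a, 6b and 7a the ubiquitous form had the lower difference. For subunit 6a the ubiquitous Cox6a1 differed by -0.18 (adjusted p = 0.0901) and the heart and muscle form Cox6a2 by 0.16 (adjusted p = 0.124). The other probe set of Cox6a2 gave -0.11, and the mean over its probe sets 0.02 (adjusted p = 0.817). For subunit 6b, Cox6b1 differed by -0.14. Its testis form Cox6b2 was at 8.77 and 8.74 in the control portions and at 9.18 and 9.23 in the null portions, 0.45 higher (adjusted p = 0.00693). For subunit 7a, Cox7a2 differed by -0.09. The heart and muscle form Cox7a1 was at 5.89 and 6.03 in the controls and at 6.29 and 6.34 in the nulls, 0.36 higher (adjusted p = 0.0242). The related Cox7a2l, which takes part in joining complexes III and IV into supercomplexes, was at 11.11 and 11.13 against 11.48 and 11.59, 0.41 higher (adjusted p = 0.0126), and its other probe sets gave 0.39 and 0.41. None of these 3 genes reached the fold limit. In each both null arrays lay above both control arrays, as in 7 of the 15 genes of the complex (46.7%) and 28.9% of all genes. For subunit 8, the ubiquitous Cox8a differed by 0.07, the heart and muscle form Cox8b by 0.04 and the testis form Cox8c by 0.25 (adjusted p = 0.0565). Poly-A centring turns Cox6a2, Cox8a and Cox8b to -0.08, -0.16 and -0.19. Cox7b2 differed by 0.10 and lay between 2.98 and 3.22 on the 4 arrays, near the bottom of the scale. Apart from the 6 tissue isoforms of complex IV, the 74 other genes had a median of -0.13.

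The remaining subunits of complex IV were lower or near 0. Cox5a, which with Cox5b is one of the broadly expressed matrix-side subunits, was at 12.72 and 12.79 in the control portions and at 12.43 and 12.26 in the null portions. Its difference of -0.41 was the most negative of the complex (adjusted p = 0.0216), and the groups did not overlap. Cox5b and Cox6c each differed by -0.09.

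The ATP synthase had 1 gene that fell, 0 that rose and a median of -0.16 over 17 genes, with 5 lower and 0 higher by adjusted p alone. Atp5j encodes coupling factor 6 of the peripheral stalk, which keeps the catalytic head from turning with the rotor. It was at 11.96 and 12.01 in the control portions and at 11.41 and 11.35 in the null portions, with no overlap. The gene fell by 0.61 (SE 0.07, 1.52-fold, adjusted p = 0.0036), just past the fold limit. It missed that limit without control replicate 2 (-0.58), without null replicate 2 (-0.57) and after a further quantile normalization (-0.57). In all 4 genes of the peripheral stalk both null arrays lay below both control arrays, against 63.8% of the 80 subunit genes and 39.3% of all genes. Atp5o, the oligomycin sensitivity protein at the top of the stalk, differed by -0.31 (adjusted p = 0.018). Atp5h differed by -0.17 (adjusted p = 0.1) and Atp5pb by -0.11 (adjusted p = 0.247).

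The 5 genes of the catalytic F1 head had a median of -0.08 and differences from -0.16 to 0.07, and 0 of them passed by adjusted p. The catalytic subunit gene Atp5b differed by -0.10, its partner Atp5a1 by -0.08 and the central shaft gene Atp5c1 by -0.01. The 5 small membrane subunits had a median of -0.16, and Atp5k among them differed by -0.26 (adjusted p = 0.0292).

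The rotor ring of the ATP synthase is built from a single protein, subunit c, that is made from 3 genes with different targeting peptides, and the differences of these genes did not share a direction. Atp5g1 was at 11.43 and 11.42 in the control portions and at 10.85 and 10.83 in the null portions. Its difference of -0.58 (adjusted p = 0.00323) lay just under the fold limit, where Atp5j lay just over it. It passed both limits without control replicate 2 (-0.59), without null replicate 1 (-0.59), with median centring (-0.65), with poly-A centring (-0.82) and as the mean over its probe sets (-0.68). Atp5g3 was at 13.17 and 13.17 in the controls and at 12.94 and 12.93 in the nulls, a difference of -0.24 (adjusted p = 0.0384). Atp5g2 was at 12.09 and 12.11 in the controls and at 12.31 and 12.29 in the nulls. Its arrays lay the other way, with a difference of 0.20 (adjusted p = 0.0668) that became -0.04 under poly-A centring. No test of the difference between the 3 genes was made.

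Probe sets of the same subunit gene did not always give the same value. Of the 80 genes 50 had several probe sets, and in 32 of these all had the same sign. The 90 probe sets that did not stand for a gene included 7 that fell and 6 that rose. Over the array, 8.15% of such probe sets fell and 8.88% rose. Over all 170 probe sets 11 fell and 8 rose, against 6.96% and 6.76% of all probe sets tested. In 10 genes such a further probe set was called. The widest gap between a further probe set and the one standing for its gene was in Atp5c1, where the latter differed by -0.01 and another, at 5.99 and 5.82 in the controls and 7.79 and 7.77 in the nulls, rose by 1.88 (adjusted p = 0.00068). For Ndufa3, a membrane arm subunit, another probe set at 5.91 and 6.02 against 7.01 and 6.92 rose by 1.00 (adjusted p = 0.0015). For Sdha another probe set at 5.49 and 5.57 against 6.28 and 6.57 rose by 0.89 (adjusted p = 0.00529). In these 3 genes the probe set standing for the gene differed by no more than 0.02 in size.

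Ndufab1, the mitochondrial acyl carrier protein that is also part of complex I, was the only gene of the 80 with probe sets called in opposite directions. The one standing for it differed by -0.06, others rose by 1.20 (adjusted p = 0.000892) and fell by 0.82 (adjusted p = 0.00429) and by 0.77 (adjusted p = 0.0163), and the last differed by -0.17. Its direction is therefore uncertain. Ndufb2 had another probe set that rose by 0.73 (adjusted p = 0.00211) against the -0.44 of the one standing for it and the -0.32 of the remaining one, and the mean over its probe sets gave -0.01 (adjusted p = 0.938). Another probe set of Ndufs4, an N module subunit, fell by 0.83 (adjusted p = 0.00425) beside a difference of 0.03. Another of Atp5g1 fell by 0.78 (adjusted p = 0.0295), in the direction of its representative. A further 10 probe sets name a subunit gene beside another gene and were not counted among the 170, and of these 1 fell and 0 rose, with a median of -0.23.

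**Figure D3:**
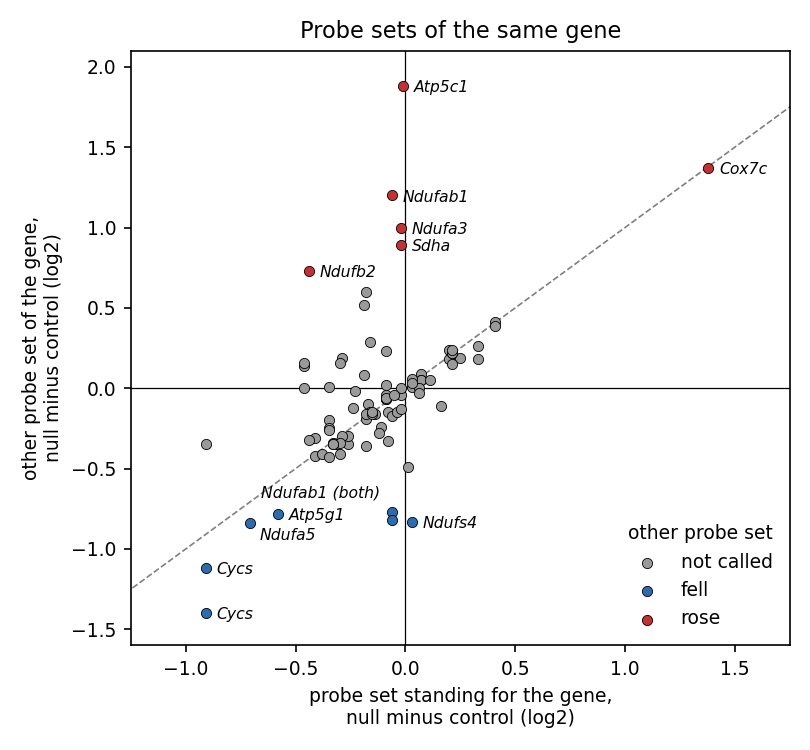
Difference (null minus control, log2) of each further probe set of a subunit gene on the vertical axis against that of the probe set standing for the gene on the horizontal axis. Points on the dashed line give equal values, as for Cox7c at 1.37 and 1.38, while the red points near 0 on the horizontal axis are the further probe sets of Atp5c1, Ndufab1, Ndufa3 and Sdha that rose.

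The wider pathway of respiration was examined through lists of assembly factors, electron entry, the citric acid cycle, carriers and transcription factors. Among 17 assembly factors of complex I 2 fell and 1 rose, with a median of -0.13. Ndufaf1 and Ndufaf2, which help to build the membrane arm and the whole complex, fell by 0.65 (adjusted p = 0.0035) and 0.63 (adjusted p = 0.00265). Tmem186, a factor of the assembly intermediate that holds Ndufaf1, was at 7.29 and 7.18 against 8.03 and 8.31 and rose by 0.94 (adjusted p = 0.00497).

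The assembly factors of complex II lay lower than any other list of the pathway, with 2 of 4 that fell, 0 that rose and a median of -0.47. Sdhaf1, which helps iron-sulfur clusters into SDHB, was at 9.28 and 9.19 in the control portions and at 8.16 and 8.30 in the null portions. It fell by 1.00 (SE 0.08, adjusted p = 0.00178), next to the fall of Sdhb itself. Sdhaf2, which attaches the flavin to SDHA, was at 9.85 and 9.70 against 9.20 and 9.16 and fell by 0.59 (adjusted p = 0.00606). In all 4 genes of the list both null arrays lay below both control arrays, against 39.3% of all genes.

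Of 19 assembly factors of complex IV 2 fell and 1 rose, with a median of -0.08. The related copper chaperones Sco1 and Sco2, which both serve the copper centre of complex IV, lay in opposite directions. Sco1 was at 7.65 and 7.71 in the controls and at 6.56 and 6.37 in the nulls and fell by 1.22 (adjusted p = 0.00138). Sco2 was at 7.21 and 7.11 against 7.79 and 7.88 and rose by 0.67 (adjusted p = 0.00357). Cox19, another copper-handling factor, fell by 0.60 (adjusted p = 0.00396). The 6 assembly factors of complex III and the 2 of the ATP synthase had 0 calls, with medians of 0.00 and -0.09.

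Of 17 genes of ubiquinone supply and electron entry 2 fell and 1 rose, with a median of -0.21. Coq10b, a ubiquinone-binding protein of the inner membrane, was at 8.74 and 8.69 in the control portions and at 7.19 and 7.20 in the null portions and fell by 1.52 (SE 0.06, adjusted p = 0.000633). Pdss2, a subunit of the enzyme that makes the ubiquinone tail, fell by 0.89 (adjusted p = 0.00191), and Coq8a, an atypical kinase of ubiquinone synthesis, rose by 0.61 (adjusted p = 0.0102). The 16 citric acid cycle enzymes had 0 calls and a median of -0.18, with 5 lower and 2 higher by adjusted p alone. The most negative were Ogdh (-0.53) and Idh3a (-0.47), which encode subunits of 2-oxoglutarate dehydrogenase and isocitrate dehydrogenase. The 8 nucleotide and phosphate carriers also had 0 calls, and the ATP/ADP carrier gene Slc25a5 differed by -0.47 (adjusted p = 0.00603).

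Among 18 transcription and biogenesis factors of mitochondria 1 fell and 1 rose, with a median of -0.14. Both belong to the PGC-1 family of coactivators: Pprc1 was at 9.79 and 9.87 against 9.21 and 9.22 and fell by 0.62 (adjusted p = 0.00352). Ppargc1b was at 6.13 and 6.20 against 6.83 and 6.74 and rose by 0.62 (adjusted p = 0.0043). The third member, Ppargc1a, differed by -0.04 (adjusted p = 0.688). Nrf1, whose protein binds the motif searched in the promoters, was 0.34 higher (adjusted p = 0.0174) without reaching the fold limit, and Tfam, which packages and transcribes mitochondrial DNA, differed by -0.11 (adjusted p = 0.301).

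**Figure D4:**
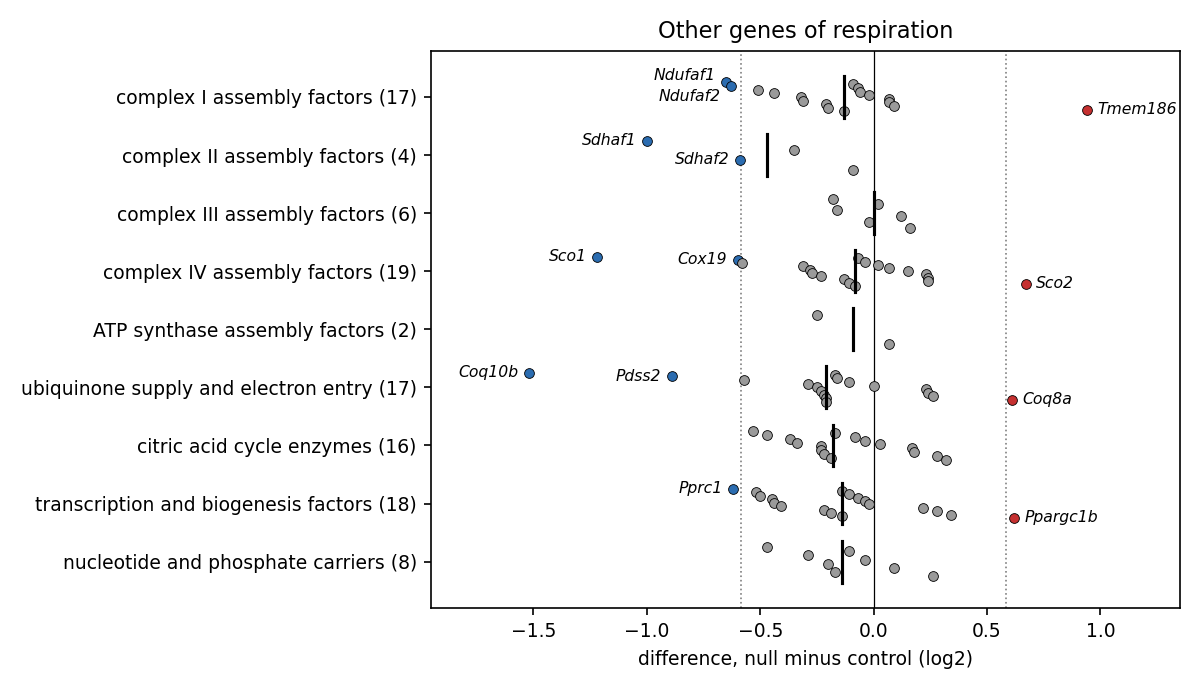
Difference between the null and control pools (log2, horizontal axis) for the genes of 9 lists around the respiratory chain, 1 point a gene, with the number of genes in brackets, the median of each list as a bar and dotted lines at the fold limit. The assembly factors of complex II have the lowest median, -0.47, and Coq10b has the most negative value of all points, -1.52.

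The 4 genes set apart from the subunits include pairs in which one form is known to be induced by low oxygen. Cox4i1, the ubiquitous form of subunit 4 of complex IV, was at 12.80 and 12.81 in the control portions and at 12.70 and 12.77 in the null portions, a difference of -0.07. The lung and hypoxia form Cox4i2 was at 6.12 and 6.02 against 6.73 and 6.70 and rose by 0.64 (adjusted p = 0.00358). Ndufa4 was at 11.73 and 11.70 against 11.53 and 11.51 (-0.19), and its paralogue Ndufa4l2 was at 7.23 and 7.08 against 9.73 and 9.87, with no overlap.

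**Figure D5:**
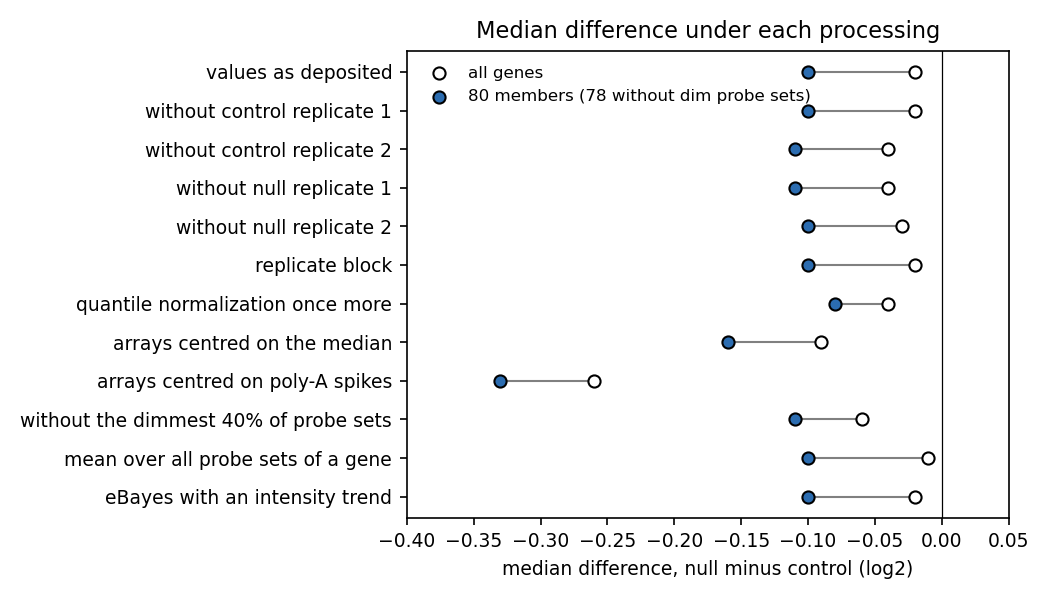
Median difference (null minus control, log2, horizontal axis) over the 80 subunit genes (filled; 78 without dim probe sets) and over all genes (open) under each way of processing. The filled point lies to the left of the open one in each of the 12, and centring on the poly-A spikes moves both, to -0.33 and -0.26.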

How the data were processed

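The 4 arrays (2 portions of each of 2 pools) were labelled with biotin from 5 microg total RNA, per the labels' protocols. The authors deposited expression values on the log2 scale, which per the submitters' processing notes come from RMA and affy. The versions of both and the probe mapping were not given in those notes. RMA gives the probe values of all arrays the same distribution before they are summarised into probe sets, so a change in total RNA per embryo is not measured. The summarised values can still differ slightly between arrays, as their medians do. The values were used as deposited. The 64 Affymetrix control probe sets were kept out of the tests, leaving 45037. The platform table names 1 gene for 34945, several for 932 and does not list 9160. All 170 subunit probe sets matched RefSeq (GRCm38.p6) by gene number and symbol. Promoter sequences are RefSeq's on GRCm38.p6, and 13 subunit genes had none in that table.

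The null and control arrays were compared by limma 3.58.1 under R 4.3.3 (lmFit and eBayes, genotype as the only term), with Benjamini-Hochberg adjustment over all 45037 probe sets. The number of arrays limits the precision: an exact two-sided permutation test of 2 against 2 cannot go below 0.333. On simulated data of this comparison, 38% of probe sets changed 1.5-fold and 100% of those changed 2-fold passed both limits, with 2 false calls among 45037. By adjusted p alone 62% of those changed 1.5-fold and 0% of those changed 1.25-fold passed. The simulation changed only 200 probe sets, while in the data 7933 were lower and 6801 higher by adjusted p alone. The adjustment is stricter where few probe sets change, so the simulated shares do not carry over to the data. There Sdhc passed adjusted p alone at 1.17-fold. Portion numbers did not pair the arrays (correlation of the deviations 0.0563). The subunit genes, lists, motifs and tests were chosen with earlier results of these data known. Named genes are those past both limits, the 2 with the largest positive and negative differences in each complex, all of complex II, tissue isoforms and subunit c genes, genes with opposite probe sets and up to 3 called genes of each other list. Other genes were named after their values were seen. Alternatives were each array left out, a replicate block, another quantile normalization, centring on the median or on 24 poly-A spike probe sets, no probe sets among the dimmest 40%, the mean over a gene's probe sets, an intensity trend in eBayes, adjusted p alone and all probe sets counted singly.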

Additional observations from a re-analysis of the deposited data

How the results depend on the processing

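The count of subunit genes that fell was 4, with 3 to 5 when 1 array was left out, and the count that rose was 2 in each of these fits. With poly-A centring 10 fell and 1 rose; by adjusted p alone 23 were lower and 7 higher; counted over all probe sets 11 fell and 8 rose. Poly-A centring moves the median of all genes from -0.02 to -0.26, and the share of rises among the calls over all genes from 30.8% to 9.87% (22.8% with median centring). The median difference of the 80 genes was -0.10, and -0.08 after a further quantile normalization, -0.16 with median centring and -0.33 with poly-A centring. In the same order complex I gave -0.06, -0.16 and -0.33, complex II -0.08, -0.20 and -0.37, complex III -0.14, -0.26 and -0.43, and complex V -0.10, -0.22 and -0.39. Complex IV gave 0.01 with median and -0.16 with poly-A centring. With the mean over probe sets complex II gave -0.09 and complex III -0.08. Leaving out 1 array gave -0.16 to -0.12 for complex II, -0.23 to -0.15 for complex III, 0.00 to 0.15 for complex IV and -0.16 to -0.13 for complex V. The cause of these moves was not tested. The replicate block, with numbers that name portions only, left 4 that fell and 2 that rose, with 18 lower by adjusted p alone. By adjusted p alone the intensity trend in eBayes gave 44 lower and 11 higher, and the mean over probe sets 17 and 10. Both counts were below 23 and 7 with any 1 array left out, which leaves 1 portion in a pool. Of 340 alternative values of 31 named genes, 311 kept their direction and their side of the limits, 8 were newly past the limits, 4 were no longer past them and 17, in 10 genes, changed sign. None of these 10 genes (0 of 10) had passed both limits. With poly-A centring Atp5d went to -0.16, Atp5g2 to -0.04, Cox6a2 to -0.08, Cox7b2 to -0.13, Cox8a to -0.16, Cox8b to -0.19, Uqcrc2 to -0.17 and Uqcrh to -0.21. With median centring Cox8b went to -0.02, Uqcrc2 to just under 0.00 and Uqcrh to -0.04. A further quantile normalization took Cox8b to -0.03, Sdha to 0.01 and Sdhd to 0.02. The mean over probe sets took Sdha to 0.19, and leaving out 1 array took Cox8b to between -0.06 and -0.04 (without null replicate 2 and control replicate 1). Besides Atp5j, Atp5g1 and Ndufv3, the genes among these 31 that crossed the limits were Cox5a (-0.64), Ndufb2 (-0.67) and Uqcrq (-0.70), which passed both with poly-A centring. Outside the 31, Ndufb1 and Ndufb7 also fell with poly-A centring. Atp5c1 rose with the mean over its probe sets, a setting in which 5 subunit genes fell and 3 rose. With the mean over probe sets Ndufb2 gave -0.01 (limma adjusted p = 0.938) and Uqcrq -0.04 (adjusted p = 0.726). Poly-A spike medians were 7.40 and 7.63 in the control portions and 7.67 and 7.83 in the null portions. The control portions therefore differ by about as much as the pools, and the null portions by less.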
